A study of Drosophila melanogaster with 6 samples.

Results

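The genes described here are the expressed members of the CR-named class of the Drosophila annotation, in which a gene without a recognised protein product is named CR followed by digits. A gene was taken when its mean over the 3 GFP+ myoblast libraries or over the 3 input libraries reached 5 RPKM, and noe and pncr002:3R, long noncoding RNAs with names of another kind, were added by name. This gave 93 genes of the 17490 in the table, namely 91 of the 2463 CR-named genes (3.69%) and the pair added by name. Of the CR-named genes, 1687 were listed at 0 in all 6 libraries and 2204 had both group means under 1 RPKM. The group means chose the members, so the levels given below describe them and are no independent evidence of a difference.

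Messenger RNA was sequenced from GFP+ myoblasts sorted from leg imaginal discs, the larval tissue that forms the adult leg, at 0 h after pupae formation (APF), in 3 libraries. It was also sequenced from the input, a sample of all cells of the leg disc, in 3 libraries at the same time point. Both groups carried R32D05-lexA>lexAopGFP, and discs were dissociated with collagenase and papain. The input holds the myoblasts as well, the myoblasts are defined by where the R32D05 fragment drives lexA, and in bulk samples fewer cells of a type cannot be told apart from less RNA per cell. Values are RPKM, reads scaled by the length of the gene and by the total of reads, so that levels of different genes can be set side by side.

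Long noncoding RNAs are transcripts that do not serve as templates for a protein, and many, but not all, are spliced and polyadenylated much as messenger RNAs are. They can act in the nucleus on neighbouring genes, hold proteins together in granules, or serve as precursors of microRNAs. Pseudogenes are disabled copies of other genes, and reads from a pseudogene can be hard to tell from reads of its parent. Hairpin RNAs fold back on themselves and are cut into small interfering RNAs in fly cells. Libraries made with oligo(dT), as here, capture RNAs with a poly(A) tail and under-sample those without one.

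In the current annotation (Ensembl release 115, dm6 coordinates), 45 of the 93 genes were noncoding RNAs and 45 were pseudogenes. CR43051 was listed as a protein-coding gene, CG43051, and CR18854 and CR42735 were not matched there. RefSeq lists CR18854 as a hairpin RNA on chromosome 2L (9787294 to 9790745). The name "noncoding" therefore covers pseudogenes and noncoding RNAs in equal number. The noncoding RNAs had a median exon length of 747 bases and 23 of the 45 had a single exon, while the pseudogenes had a median of 715 bases and 12 of the 45 had a single exon. The X chromosome carried 29 of the genes, 3L 22, 2L and 3R 13 each, 2R 10 and chromosome 4 4. Intergenic positions held 58 of them, 13 shared exon bases with a gene on the opposite strand, 8 shared exon bases with a gene on the same strand, and 12 lay within the span of another gene without sharing exon bases. For those that share exon bases with another gene, reads may belong to either gene, since strand use in the counting is not given in the sources used here.

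RPKM values recovered as whole reads gave totals of 64760299 to 84315030 reads in the myoblast libraries and 41455652 to 67762987 reads in the input libraries. The reads carry no molecular identifiers, so read numbers describe counting error only. The labels do not say how the replicates were kept separate, and p-values measure the spread between these libraries, which may be technical. All 7 myoblast markers (such as twi, Mef2 and Him) were called higher in the myoblasts. Their summed RPKM was 483 to 591 in the myoblasts and 80.1 to 112 in the input. Of the disc epithelium markers, 4 of 5 (grh, Dll, Fas3 and nub, but not shg) were called lower. All 5 together summed to 57.3 to 75.6 RPKM in the myoblasts and 142 to 244 RPKM in the input. Most of that myoblast sum was shg, at 53.6, 72.1 and 64.5 RPKM. The means of grh, Dll, Fas3 and nub were 0.615, 0.310, 2.39 and 0.136 RPKM in myoblasts. In the input they were 38.3, 36.6, 56.7 and 10.3 RPKM. Nub was at 0 in myoblast replicate 3. The part of these cells in the levels given below was not tested. Input replicate 1 stood apart. Its RPKM summed to 963726, against 481720 and 589908 in input replicates 2 and 3, and it was the highest of the 3 input libraries for 53 of the 93 genes (57.0%), against 39.5% of all tested genes.

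Genes were compared with limma on log2(RPKM + 1), a scale that understates the change of low genes, and calls required a fold change over 1.5 and a Benjamini-Hochberg adjusted p below 0.05 over the 7533 genes tested. Of all genes tested, 20.4% were called, 5.52% higher and 14.8% lower in myoblasts. Of the 93 genes, 92 were tested and 18 were called, 5 higher and 13 lower. The median log2 fold change was -0.21, against 0.01 over all genes tested. Because the rule used the same contrast, these counts are a description. Without input replicate 1, 29 were called, 10 higher and 19 lower, among them all 18, while 2342 of the 7533 genes tested were called, and the median of the genes described was -0.01. A total of 57 genes reached 5 RPKM in both groups, 30 in the input only and 4 in the myoblasts only.

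**Figure D1:**
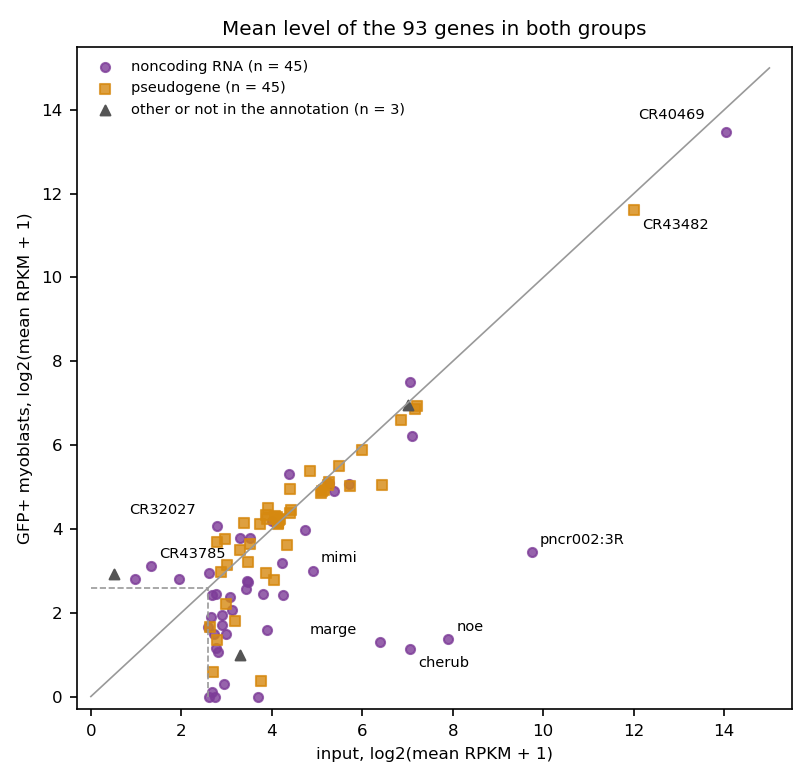
Mean level of each of the 93 genes in GFP+ myoblasts (y axis) and in the input (x axis), as log2(mean RPKM + 1), with 3 libraries a group. Circles are noncoding RNAs, squares pseudogenes and triangles the remaining 3 genes, the diagonal marks equal means, and the dashed lines mark the 5 RPKM of the rule. Most of the 45 pseudogenes lie near the diagonal, CR43385 lies well below it, and noe, pncr002:3R, cherub and marge lie far below it. The limma fold change, which uses means of log values, was within 1.5-fold for 34 pseudogenes. Some of these, such as CR41519, CR42530 and CR44383, differ by more on the plotted means.

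The levels of the noncoding RNAs and the pseudogenes are given apart, as a description. Of the 44 noncoding RNAs tested, 4 were called higher and 9 lower in the myoblasts, with a median log2 fold change of -0.78. Of the 45 pseudogenes, none was called higher and 4 were called lower, with a median of -0.01, and 34 had a fold change within 1.5-fold, as had 4813 of the 7533 genes tested. The rule fixes part of this, since 23 of the 45 noncoding RNAs and 6 of the 45 pseudogenes entered through the input only and had to be higher there. A further 17 noncoding RNAs and 39 pseudogenes reached 5 RPKM in both groups. Of these, 3 noncoding RNAs and 1 pseudogene were called, against 20.4% of all genes tested. The difference between both kinds was not tested.

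The lowest myoblast levels relative to the input belonged to a few long noncoding RNAs. The RNA noe (lncRNA:noe, chromosome 3L, 17400272 to 17401348, minus strand) had 1.14, 1.38 and 2.22 RPKM in myoblast replicates 1, 2 and 3, against 205, 226 and 280 RPKM in input replicates 1, 2 and 3. Its mean was 1.58 ± 0.567 RPKM in myoblasts and 237 ± 38.6 RPKM in the input (SD, n = 3 each), a ratio of input to myoblasts of 149.9. The groups lay far apart and the input libraries were close to each other. In Ensembl release 115 it is a single exon of 1077 bases within the span of blot, which encodes a transporter-like membrane protein and lies on the same strand. The exons of noe and blot do not overlap there. At 1077 bases noe did not give whole reads (103.18, 125.76 and 154.78 in the myoblast libraries), so its length in the counting may differ. The gene blot had 2.37, 3.03 and 3.46 RPKM in myoblasts against 11.9, 17.8 and 13.2 RPKM in the input. This was a called change of -1.94 on the log2 scale (adjusted p = 0.00134, limma).

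For pncr002:3R (lncRNA:CR33938, 3R, 6699560 to 6700164, minus strand), values were 8.16, 18.8 and 2.75 RPKM in myoblasts and 521, 621 and 1425 RPKM in the input. Each myoblast library was well under each input library, although the spread within both groups was wide, and input replicate 3 was well above the other two. Its mean of 9.92 RPKM in myoblasts was also above 5, so it was expressed in both groups by the rule of the CR-named genes. The nearest coding gene, the cuticle protein gene Ccp84Ab, lies 1803 bases away on the same strand and was listed at 0 in the myoblasts, against 1.42, 2.98 and 7.36 RPKM in the input. Input replicate 3 was the highest library for both genes.

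The gene CR43283 is now named cherub, a long noncoding RNA that in fly neuroblasts is inherited unequally at division. It lies on 3R (11247631 to 11256123, minus strand) and has the longest exon sequence of these noncoding RNAs, at 8398 bases. It had 1.24, 2.12 and 0.257 RPKM in myoblasts, against 35.7, 169 and 192 RPKM in the input. The groups did not overlap, and input replicate 1 was much lower than the other input libraries. CG5214, which lies 768 bases from it on the opposite strand, had a log2 fold change of 0.18 (adjusted p = 0.535, limma).

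The gene CR31451, now named mimi, encodes an RNA that in fly neurons scaffolds ribonucleoprotein granules. It lies on 3R (23983503 to 23985065, plus strand), holds the microRNA mir-9381 and reached 5 RPKM in both groups. It had 6.60, 5.09 and 9.37 RPKM in myoblasts, against 12.4, 40.3 and 34.2 RPKM in the input, with no overlap. The log2 fold change was -1.78 (SE 0.44, adjusted p = 0.0222, limma), and the call held under 8 of 14 alternative settings. It was lost without myoblast replicates 1 or 2 or input replicates 2 or 3, after libraries were rescaled to the same sum (adjusted p = 0.0928) and with no filter on low values (adjusted p = 0.0536), and under the alternatives its adjusted p was 0.000243 to 0.0943. As with cherub, input replicate 1 was the lowest input library. The summed level of the neuron markers elav, nSyb, Syt1, brp and onecut moved the same way, at 3.05, 4.43 and 3.38 RPKM in myoblasts and 15.6, 63.2 and 57.0 RPKM in the input. The 4 of these 5 genes that were tested were all called lower, and nSyb was at 0 in myoblast replicates 2 and 3. Input replicate 1 was also the lowest input library for the summed myoblast, tendon precursor, disc epithelium, hemocyte and trachea markers. It was the highest for the glia and contractile muscle markers. Of 5 disc epithelium markers, 4 were called lower too. The part of any of these cells in the levels of cherub and mimi was not tested.

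Marge (CR43432, 3L, 14976626 to 14977631, minus strand, single exon) had 1.49, 1.76 and 1.09 RPKM in myoblasts, against 122, 57.6 and 69.9 RPKM in the input. It lies 585 bases from Ocho on the opposite strand, a Bearded family gene whose product restrains Notch signalling. Ocho had 0, 0.676 and 1.33 RPKM in myoblasts, against 19.7, 7.43 and 20.9 RPKM in the input, that is, a log2 change of -3.31 (adjusted p = 0.00168, limma). Both neighbours were thus near 0 in myoblasts and clearly present in the input.

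Other genes that reached 5 RPKM in the input only were at or near 0 in myoblasts. CR44832 (X, 5790952 to 5791536) was listed at 0 in all 3 myoblast libraries, against 18.6, 6.85 and 10.3 RPKM in the input. The pseudogene CR43385 (X, 11741001 to 11742477) was at 0.896, 0 and 0 RPKM in myoblasts and at 12.4, 12.0 and 13.2 RPKM in the input. CR45916 (3L, 19562636 to 19566533) holds the microRNA gene mir-9a, which in the fly limits the number of sensory organ precursors. It was listed at 0 in all 3 myoblast libraries, against 2.53, 7.36 and 5.52 RPKM in the input. Input replicate 1 was the lowest input library for it as well. CR43857 (2L, 7423820 to 7425932), which holds mir-275, had 0.319, 0.645 and 2.69 RPKM in myoblasts and 0, 8.28 and 9.04 RPKM in the input, so its groups overlapped through input replicate 1.

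Among the rest of these 30 genes the picture was mixed. CR43264 (X, 5831898 to 5832215) had 8.85, 4.21 and 0 RPKM in myoblasts, against 22.8, 12.8 and 18.6 RPKM in the input. It lies within the span of CG15765 on the opposite strand, which was called lower with a log2 fold change of -2.64 (adjusted p = 0.0188). CR42861 (X) had 4.63, 5.88 and 2.76 RPKM in myoblasts, against 16.3, 5.18 and 17.3 RPKM in the input, and its groups overlapped. CR43144 (2L) had 6.05, 4.09 and 4.50 RPKM in myoblasts, against 8.22, 15.7 and 5.63 RPKM in the input, also with overlap. CR43995 (3L) entered through a single library, with 2.31, 3.72 and 0 RPKM in myoblasts and 38.0, 0 and 3.46 RPKM in the input. All 30 genes entered through a high input mean, so the rule fixed that the input mean was the higher one.

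**Figure D2:**
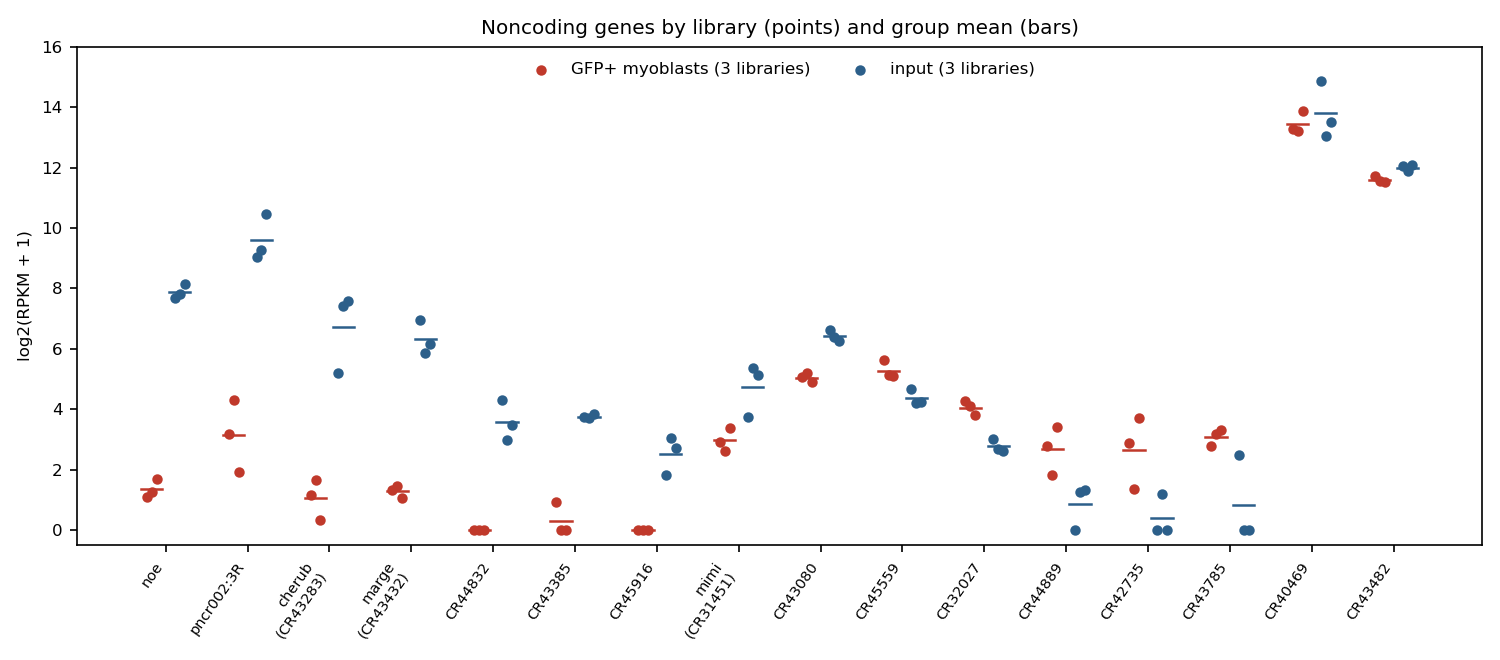
Level of 16 of the genes in each library, as log2(RPKM + 1), with GFP+ myoblasts left of the input. Points are the 3 libraries of a group and bars are means of the log2 values. The myoblast and input libraries do not overlap for noe, pncr002:3R, cherub and marge, and overlap for CR40469.

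Among the CR-named genes expressed in both groups, CR32027 and CR45559 were called higher in the myoblasts. CR32027 (3L, 18841579 to 18842786, 3 exons) had 18.1, 16.3 and 12.9 RPKM in myoblasts, against 7.16, 5.35 and 5.19 RPKM in the input. Every myoblast library exceeded every input library. The log2 fold change was 1.28 (SE 0.25, adjusted p = 0.00757, limma), and the call was lost under 1 of 14 alternative settings, without myoblast replicate 1 (adjusted p = 0.0541, range over the alternatives 0.00127 to 0.0541). It lies within the span of Indy, a citrate transporter gene on the opposite strand, whose log2 fold change was 0.20 (adjusted p = 0.771).

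CR45559 (3R, 6892918 to 6893462, minus strand) had 48.1, 33.9 and 33.3 RPKM in myoblasts, against 24.2, 17.4 and 17.8 RPKM in the input. The log2 fold change was 0.92 (SE 0.23, adjusted p = 0.0255, limma). This call was lost when any single library other than input replicate 1 was left out. Its nearest coding gene is Antp, the Hox gene of the thorax, 2790 bases away and upstream on the same strand. Antp had 30.3, 33.9 and 31.4 RPKM in myoblasts, against 10.7, 11.8 and 12.9 RPKM in the input, that is, a log2 change of 1.36 (adjusted p = 0.00151).

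The 4 genes that reached 5 RPKM in the myoblasts only were all low. CR43785 (3L, 737052 to 737479) had 5.86, 8.01 and 8.98 RPKM in myoblasts, against 4.57, 0 and 0 RPKM in the input. CR44889 (X, 19712934 to 19713821) had 5.94, 2.57 and 9.58 RPKM in myoblasts, against 0, 1.39 and 1.53 RPKM in the input. It shares 112 exon bases with meso18E, a gene expressed in the mesoderm, on the opposite strand, and the reads of both cannot be told apart there if strand was not used. The gene meso18E had 31.4, 39.7 and 37.6 RPKM in myoblasts, against 3.55, 6.64 and 7.15 RPKM in the input, that is, a log2 change of 2.50 (adjusted p = 0.000448, limma). CR42735, for which no annotation was matched, had 6.33, 1.55 and 12.0 RPKM in myoblasts, against 0, 1.30 and 0 RPKM in the input. CR43963 (X) had 2.33, 7.06 and 8.58 RPKM in myoblasts, against 4.08, 4.55 and 0 RPKM in the input. It was the 1 gene of the 4 whose groups overlapped, and it shares 20 exon bases with Smr, a corepressor gene, on the same strand. Over all genes tested, the groups did not overlap for 37.8%, and for 16.4% with the myoblasts higher. All 4 genes entered through a high myoblast mean, so the rule fixed that the myoblast mean was the higher one.

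Of the 57 genes expressed in both groups, 41 were within 1.5-fold, as were 4813 of the 7533 genes tested. Of the 57 genes, 4 (7.02%) were called, against 20.4% of all genes tested. Beside mimi, CR32027 and CR45559 the call was the pseudogene CR43080 (2L, 454754 to 455313). It had 32.3, 35.6 and 28.6 RPKM in myoblasts, against 98.2, 82.8 and 76.1 RPKM in the input. The log2 fold change was -1.38 (SE 0.19, adjusted p = 0.00125, limma), and the call held under all 14 alternative settings, with an adjusted p of 0.000319 to 0.0121. It starts 99 bases downstream of shv on the same strand. The gene shv, which encodes a DnaJ family chaperone, was called lower as well, with 39.1, 37.8 and 41.6 RPKM in myoblasts, against 71.4, 65.3 and 68.0 RPKM in the input, that is, a log2 change of -0.77 (adjusted p = 0.0115). Whether reads of shv transcripts entered the value of CR43080 was not tested.

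Most of the summed RPKM of the 93 genes came from a single pair. Both genes of the pair are short, at 214 and 352 exon bases, and RPKM divides reads by length. In reads of input replicate 3, cherub stood at 109013, against 168182 for CR40469 and 102863 for CR43482. CR40469, a noncoding RNA of 214 bases near the start of the X chromosome (122493 to 122706), had 9859, 9539 and 14944 RPKM in myoblasts, against 30279, 8540 and 11598 RPKM in the input. The high input mean rested on input replicate 1, and the groups overlapped, with a log2 fold change of -0.36 (SE 0.60, adjusted p = 0.749, limma) that was 0.17 without that library. The pseudogene CR43482 (3L, 9386112 to 9386463) had 3385, 2996 and 2967 RPKM in myoblasts, against 4218, 3797 and 4312 RPKM in the input. Its groups did not overlap, with a log2 fold change of -0.40 (SE 0.30, adjusted p = 0.423). CR43483, another pseudogene that shares 1 base with it on the opposite strand, had 18.0, 14.5 and 21.1 RPKM in myoblasts, against 4.60, 18.9 and 17.9 RPKM in the input. CR43483 also shares 49 exon bases on the opposite strand with Hsp27, at 2301 to 2633 RPKM in myoblasts and 2965 to 3283 RPKM in the input. Whether reads of Hsp27 entered the value of CR43483 was not tested. CR40469 and CR43482 together made up 87.6% to 90.9% of the RPKM of the 93 genes in myoblasts and 80.6% to 90.8% in the input. All 93 genes held 2.25% to 3.02% of the summed RPKM of the myoblast libraries and 3.16% to 3.94% of that of the input libraries. The other 91 genes held 0.269% to 0.302% in myoblasts and 0.362% to 0.648% in the input.

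Of the remaining abundant genes, none of the following was called. The long noncoding RNA CR42862 (3L, 224106 to 230964) had 152, 215 and 173 RPKM in myoblasts, against 72.5, 191 and 133 RPKM in the input, with a log2 fold change of 0.53 (SE 0.34, adjusted p = 0.351, limma). It shares 246 exon bases on the same strand with CG33229, which was called lower, with a log2 fold change of -0.92 (adjusted p = 0.0326). CR42491 (X, 762615 to 763810) had 95.7, 66.5 and 57.8 RPKM in myoblasts, against 202, 60.0 and 144 RPKM in the input, and shares 377 exon bases on the same strand with RpL22, a ribosomal protein gene at 1060 to 1526 RPKM in myoblasts and 775 to 883 RPKM in the input. For CR42491 the log2 fold change was -0.74 (SE 0.43, adjusted p = 0.293, limma), and without input replicate 2 it was called lower, at -1.24 (adjusted p = 0.0197, range over the alternatives 0.0197 to 0.588). CR42862 and CR42491 are uncertain because of the shared exon bases. The pseudogene CR41454 (3L) had 60.2, 54.8 and 57.6 RPKM in myoblasts, against 81.4, 52.3 and 54.0 RPKM in the input, with a log2 fold change of -0.09.

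All 3 hairpin RNAs were expressed in both groups and none was called. CR18854 had 98.6, 120 and 152 RPKM in myoblasts, against 161, 103 and 118 RPKM in the input, with a log2 fold change of -0.04 (SE 0.24, adjusted p = 0.942, limma). CR32207 (3L, 19477329 to 19478720) had 32.8, 30.5 and 34.3 RPKM in myoblasts, against 91.3, 30.0 and 33.4 RPKM in the input. CR32205, on the same arm (19420390 to 19424183), had 9.62, 7.88 and 7.03 RPKM in myoblasts, against 34.7, 6.46 and 11.7 RPKM in the input. Input replicate 1 was the highest library for all 3, and the other input libraries lay near the myoblast values.

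In 3 rows of neighbouring pseudogenes the levels within a library were close to each other. On the X chromosome, CR43211 to CR43217 form a row of 7 on the plus strand (11586228 to 11599638), in which 6 have 1188 exon bases each and follow each other every 2093 bases. Their median was 13.3, 16.3 and 20.5 RPKM in myoblasts, against 17.8, 16.3 and 16.1 RPKM in the input, and the highest was 1.10 to 1.45 times the lowest within a library. Log2 fold changes were -0.03 to 0.15 across the row. On 3L, CR42722, CR42723 and CR41597 (24546138 to 24554200) had medians of 131, 106 and 109 RPKM in myoblasts, against 208, 112 and 105 RPKM in the input, with a ratio of 1.23 to 1.29 in every library. On chromosome 4, CR32009, CR32010 and CR32011 (5829 to 31633) had medians of 27.5, 33.6 and 27.0 RPKM in myoblasts, against 25.2, 42.9 and 36.1 RPKM in the input, with a ratio of 1.04 to 1.21.

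Other neighbouring pseudogenes were less even. CR33487, CR33491, CR33496 and CR33498 (X, 20178755 to 20226111) differed within a library by a ratio of 1.33 to 3.10, CR42653 and CR40190 by 1.42 to 2.32, and CR31054 and CR45548 by 1.62 to 4.27. None of the 17 pseudogenes in the 4 rows of 3 or more was called, against 20.4% of all genes tested. Most of these rows had like levels within a library, so the genes are not 17 separate outcomes. Reads that fit several near-identical copies can be split or shared between them by the counting, so the level of a single copy is uncertain. How like the copies are in sequence was not analysed here.

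**Figure D3:**
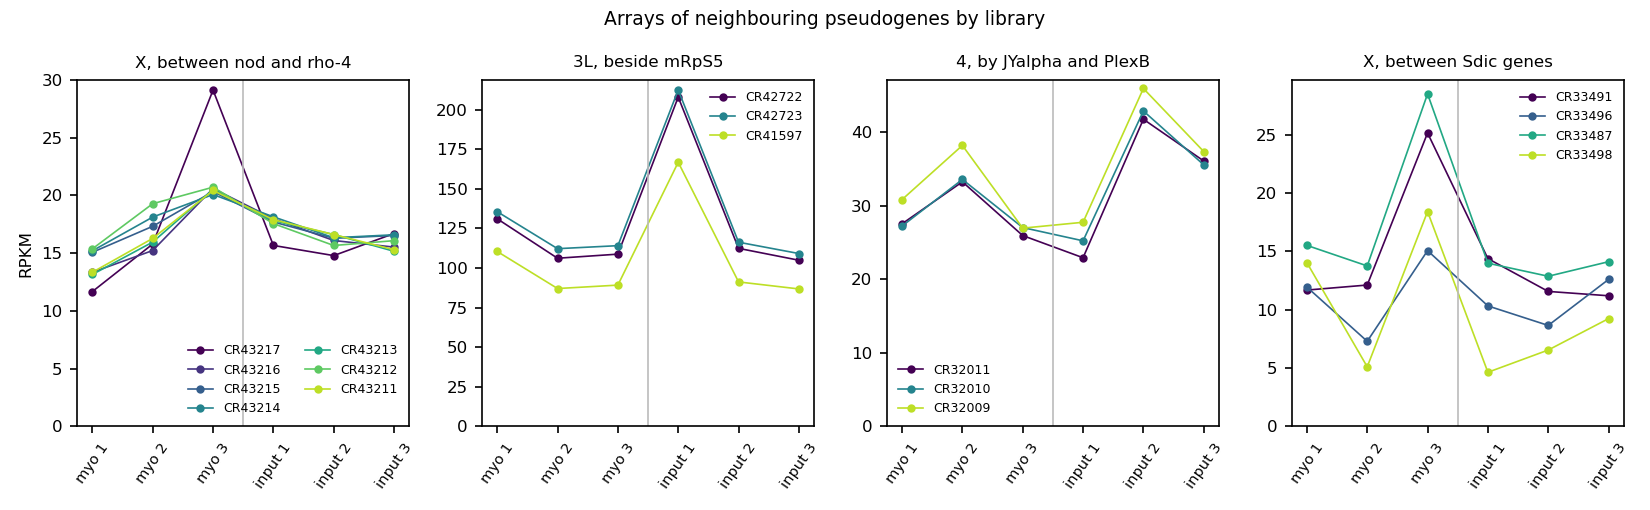
RPKM of the pseudogenes in 4 rows of neighbouring genes, by library, with the 3 GFP+ myoblast libraries (myo) left of the 3 input libraries and the vertical line between the groups. Lines join the values of a gene. Within a library the genes of the row on 3L and of that on chromosome 4 lie close together, those of the row with CR33487 do not, and the row on 3L is highest in input replicate 1.

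The levels of the genes were set beside those of their coding neighbours, which the rule did not use. Among 25 pairs in which the gene overlaps a coding gene, 14 had log2 fold changes of the same sign (Pearson's r 0.57, Spearman's rho 0.25). Among 29 pairs whose nearest coding gene lies within 1000 bases, 16 had the same sign (r 0.54, rho 0.26), and among 13 pairs farther apart, 8 did (r 0.80, rho 0.40). In each of these classes 2 pairs were called in the same direction and 0 in opposite directions. Of the coding neighbours, 6 of 25, 3 of 29 and 2 of 13 were called in that order, against 20.4% of all genes tested. Of the pairs called in the same direction, noe and pncr002:3R were added by name. The rule fixed the direction of marge and CR44889, which entered through 1 group only. These correlations are across gene pairs, which share all 6 libraries and are not independent. Some pairs also share a coding gene, as with nod and rho-4 for the row with CR43211, and CG40191 for CR40190 and CR42653. Among the pairs farther apart, pncr002:3R (-6.46) and Ccp84Ab (-2.11) lay far from the rest. Each other class also held an extreme pair. These were noe (-6.54) and blot (-1.94) among the overlapping pairs, and marge (-5.04) and Ocho (-3.31) among those within 1000 bases. The correlations without these pairs were not computed. The pairs of largest change included noe and blot, pncr002:3R and Ccp84Ab, and marge and Ocho.

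**Figure D4:**
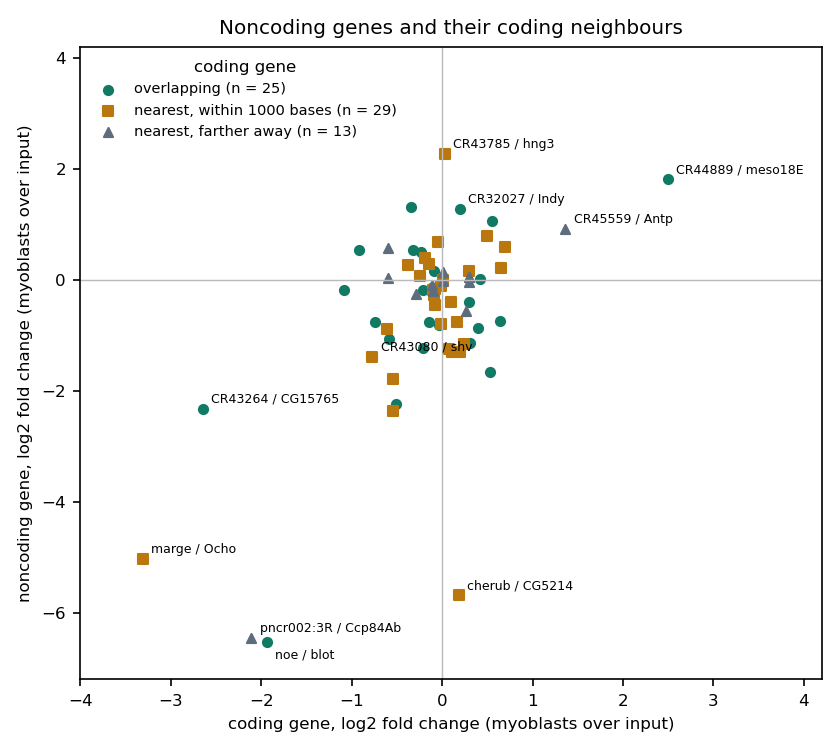
Log2 fold change (GFP+ myoblasts over input, on the log2(RPKM + 1) scale) of the coding neighbour (x axis) and of the noncoding gene (y axis). Each point is a pair, with circles for overlapping coding genes (n = 25), squares for the nearest within 1000 bases (n = 29) and triangles for the nearest farther away (n = 13). Most pairs lie near 0 on both axes, and cherub is far below 0 beside a neighbour with a log2 fold change of 0.18.

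At the threshold of the rule, the genes just inside were CR43943 (2.13 RPKM in myoblasts, 5.02 RPKM in the input) and CR45916 (0 RPKM in myoblasts, 5.14 RPKM in the input). Just outside were CR44334 (0 RPKM in myoblasts, 4.94 RPKM in the input) and CR42786 (0 RPKM in myoblasts, 4.90 RPKM in the input). All 4 were higher in the input. A set of 10 other long noncoding RNAs with their own names, the dosage compensation RNAs roX1 and roX2, the heat shock RNA Hsromega and 7 small nucleolar RNA host genes of the Uhg family, had no call, and 0 of them had an unadjusted p under 0.05 in limma. RoX1 was at 112, 131 and 116 RPKM in myoblasts, against 114, 132 and 148 RPKM in the input. Without input replicate 1, 1 of the 10 was called.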

How the data were processed

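RPKM values of 17490 genes were deposited by the authors for 3 GFP+ myoblast and 3 input libraries. Per the labels and methods, the authors filtered reads with Cutadapt, aligned them to dm6 with HISAT2 2.1.0, counted them with HTSeq 0.11.2, computed RPKM with Cufflinks and tested genes with DESeq2 1.22.2. Genes of at least 1 RPKM in at least 3 of 6 libraries (7533) were compared on log2(RPKM + 1) in R 4.3.3, using limma 3.58.1 with a trended empirical Bayes prior and p-values adjusted after Benjamini-Hochberg. Adjusted p-values were printed only for CR-named genes that reached 5 RPKM in both groups and for neighbours. Positions and exon lengths came from Ensembl release 115, which is not the release of the counting. RPKM times exon length gave whole reads within 0.05 for 97.3% to 98.6% of genes under 100 reads. No count test was run. Python 3.11.15, numpy 2.4.6, pandas 2.3.3 and matplotlib 3.10.9 served the other steps.

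Genes named are noe and pncr002:3R, the 10 most abundant, the called genes of both groups (up to 8 each way), up to 8 of highest mean among those of 1 group, the 2 on each side of the threshold, and genes that overlap a marker. CR43857, CR43483, the hairpin RNAs, the neighbouring pseudogenes and roX1 were named after their values were seen. The members and lists were chosen with earlier results of these data known. Alternatives were another pseudocount (0.1), filter, scaling or trend, a replicate block, and leaving out each library. No sequences or promoter motifs were analysed here.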

Additional observations from a re-analysis of the deposited data

How the results depend on the processing

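Of the genes described, 18 were called under the settings used. A mean RPKM above 5 as the filter gave 10 calls, with 72 genes tested instead of 92, and leaving out each library in turn gave 11 to 29. Over all genes these counts were 1534, 920 and 903 to 2342. The median log2 fold change of the genes was -0.33 to -0.0145 when each library was left out, and was -0.0145 without input replicate 1. Among the 10 other named long noncoding RNAs, 0 to 1 were called. The causes of these changes were not tested. Some of the settings also differ in the number of genes or libraries. Higher genes made up 27.1% of all calls, 16.3% after rescaling libraries to the same sum and 50.4% after quantile normalization, which moved the median of all genes to 0.16. The genes described had 3 higher and 11 lower calls after that rescaling, and 5 higher and 9 lower after quantile normalization.

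With a replicate block, 22 of the genes were called (1668 over all genes), adding CR30055, CR31032, CR43264 and CR43697. The deviations of same-numbered libraries correlated at 0.34, 0.26 and 0.01, and those of differently numbered libraries at -0.33 to 0.16. The labels and methods state no pairing, so the main fit did not take the numbers as pairs. Whether replicates 1 and 2 were paired was not tested. Without input replicate 1 the median SD of these genes among the input libraries was 0.25, against 0.55 with it, on the log2 scale. Over all genes tested it was 0.195, against 0.448. The SDs with and without that library are over different numbers of libraries, so they are not directly comparable. The number of libraries and the low RPKM of most of these genes limit the comparisons.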
